A study of Mus musculus with 12 samples.

Results

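Integrins are membrane receptors in which an alpha subunit pairs with a beta subunit, and most of them hold cells to the extracellular matrix. The 9 genes described here encode matrix-binding subunits of glomerular cells: the alpha subunits Itga1, Itga3, Itga5, Itga6 and Itgav, and the beta subunits Itgb1, Itgb3, Itgb5 and Itgb8. They were taken by gene symbol, and all 9 were found among the 14096 genes of the deposited tables. Glomerular mRNA had been sequenced in 12 libraries of male eNOS-/- mice, 3 in each of 4 groups. Every mouse, controls included, was of the strain C57BL/6J and carried the knockout of Nos3, the gene of endothelial nitric oxide synthase. Diabetic mice had received STZ (streptozotocin, which destroys pancreatic beta cells) at 8 weeks of age, 50 mg/kg on each of 5 days. Nondiabetic mice had received the citrate buffer. From 10 weeks after induction, mice were gavaged each day for 8 weeks with arctigenin (ATG, a lignan from Fructus Arctii) at 40 mg/kg or with 5% DMSO as vehicle, and they were killed 18 weeks after induction. The groups are called nondiabetic vehicle, nondiabetic ATG, diabetic vehicle and diabetic ATG.

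In the glomerulus, podocytes adhere to the laminin of the glomerular basement membrane largely through the integrin of the Itga3 and Itgb1 products. The Itga1 product pairs with that of Itgb1 to bind collagen IV and is prominent in mesangial cells, the Itga5 product pairs with it to bind fibronectin, and the Itga6 product binds laminin. The Itgav product pairs with those of Itgb3, Itgb5 and Itgb8, and these integrins bind ligands such as vitronectin or the latent form of TGF-beta.

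The libraries held 23.6 to 29.8 M (mega) reads on the listed genes. The values are log2 of reads scaled by a factor for each library, and a difference of 1 is a doubling. In every library the mean log2 value of 15 podocyte markers (12.99 to 14.6) was above that of 15 endothelial markers (12.1 to 13.6). Mesangial markers were lower, and all 14 of them were listed. The 30 tubule markers, of cells outside the glomerulus, had means of 12.5 to 13.1 in the nondiabetic vehicle group, 13.3 to 13.9 in nondiabetic ATG, 10.7 to 12.03 in diabetic vehicle and 11.4 to 12.1 in diabetic ATG. Nos3 had 846 to 2703 reads per library, and a read count over the whole gene does not test the deletion. The labels also describe digestion to single cells and a sort by a fluorescent protein, which the methods of the study do not mention, so the samples are treated as whole glomeruli. In the titles, the part before the hyphen is never shared between groups, so whatever it marks and the group cannot be told apart. The number after the hyphen numbers the libraries within a group, and 2 nondiabetic libraries have none. The labels do not say whether each library is a separate mouse, so the p-values measure the spread between these samples. In bulk RNA, fewer cells of a type and less RNA per cell cannot be told apart.

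The 250 bases upstream of the start of Itga5 and Itga1 are printed because these members were called in opposite directions in diabetes. Both are from RefSeq (GRCm38.p6, the assembly also known as mm10), which held a window for 7 of the 9 members. The Itga5 window is chr15:103366792-103367041 and that of Itga1 is chr13:115101965-115102214. Both genes lie on the minus strand, and the sequences are given 5′ to 3′ in the direction of transcription. Capitals mark matches, on either strand, to the letters GGGCGG (a GC box) or GGGNNNNNCC (the pattern of an NF-kB site).
Itga5: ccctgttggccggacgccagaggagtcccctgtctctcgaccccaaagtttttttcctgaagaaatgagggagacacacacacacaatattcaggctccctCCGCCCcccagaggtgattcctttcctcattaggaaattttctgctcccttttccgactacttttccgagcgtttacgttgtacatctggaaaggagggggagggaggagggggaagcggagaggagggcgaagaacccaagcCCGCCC
Itga1: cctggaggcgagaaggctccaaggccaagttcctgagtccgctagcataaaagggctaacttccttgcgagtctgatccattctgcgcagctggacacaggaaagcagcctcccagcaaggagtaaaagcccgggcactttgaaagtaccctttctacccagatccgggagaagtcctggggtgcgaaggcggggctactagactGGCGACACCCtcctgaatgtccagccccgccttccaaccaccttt
The Itga5 window held 2 GC boxes, at -149 to -144 and -6 to -1 from the start, and no match to the NF-kB pattern. The Itga1 window held 1 match to the NF-kB pattern, at -45 to -36, and no GC box. Of 32851 promoter windows in the table, 32.7% held a GC box and 45.8% the NF-kB pattern, so both matches are common. Neither window held TATAAA (12.4% of windows), TGANTCA (an AP-1 site, 6.75%) or CACGTG (an E box, 6.02%). The GC content was 55.6% for Itga5 and 57.6% for Itga1, beside a median of 52.4%.

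Levels of different genes were compared per kilobase of the listed transcript. In the nondiabetic vehicle group, the shared beta subunit Itgb1 had a mean of 13.26 ± 0.045 log2 units per kb (SD, n = 3). Itgb5, whose product pairs with that of Itgav, had 13.23 ± 0.082 log2 units per kb. Their difference in that group was 0.029 ± 0.037 log2 units per kb, and Itgb1 was above Itgb5 in 9 of 12 libraries, so these neighbours were not separated.

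Among the alpha subunits, Itga3 was the most abundant at 12.07 ± 0.098 log2 units per kb in the same group. It lay above Itgav (10.26 ± 0.061) in 12 of 12 libraries. Itgav in turn lay above Itga6 (9.68 ± 0.082), and Itga6 above Itga1 (9.08 ± 0.049), also in 12 of 12 libraries each. At the lower end the order was not stable. Itga1 was above Itgb8 (8.88 ± 0.12) in 10 of 12 libraries, Itgb8 above Itga5 (8.29 ± 0.16) in 7 of 12, and Itga5 above Itgb3 (7.81 ± 0.14) in 11 of 12. Itga5 exceeded Itgb8 by up to 0.97 log2 units per kb and fell short of it by up to 1.05. Even the least abundant members rested on at least 614 reads in a library (Itga5), 644 (Itgb8) and 680 (Itgb3), and Itgb1 reached 55032.

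**Figure D1:**
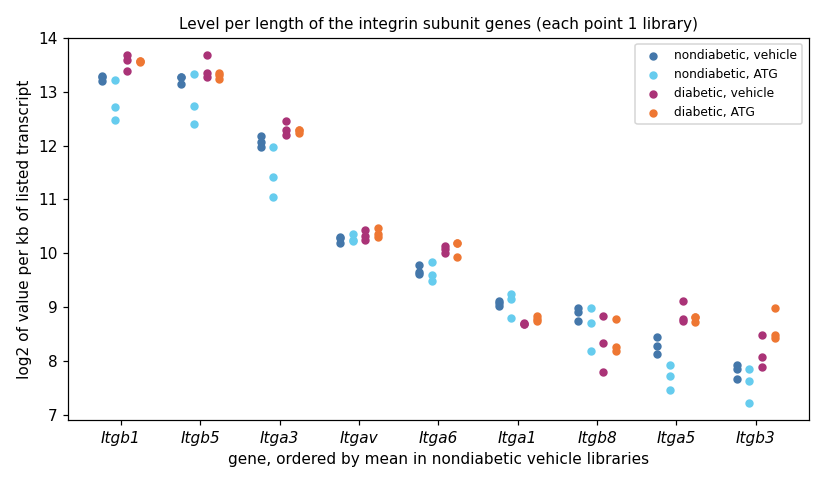
Level of each integrin subunit gene per kilobase of transcript (log2 scale, y axis), with 1 point per library, coloured by group. Itgb1, Itgb5 and Itga3 stand above the other 6 genes in all 12 libraries, and the levels of Itga1, Itgb8, Itga5 and Itgb3 overlap.

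The first comparison asked what diabetes did to the integrin subunits in vehicle-treated mice. Itga5, the fibronectin receptor subunit, and Itga6, a laminin receptor subunit, were higher in diabetic glomeruli, and Itga1, the collagen IV receptor subunit, was lower. These were 3 of 9 members at a Benjamini-Hochberg adjusted p under 0.05 in limma, beside 18.9% of all genes. The median log2 change of the 9 members was 0.24, and that of all genes was 0.0075.

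Gene positions are those of the deposited tables, on mm10. Itga5 (chr15:103344286-103366791) had log2 values of 10.27, 10.59 and 10.42 in nondiabetic vehicle libraries and 11.25, 10.91 and 10.89 in diabetic vehicle libraries. All 3 diabetic libraries were above all 3 nondiabetic ones. Its log2 change was 0.59 (SE 0.13, 1.50-fold, limma adjusted p = 0.0137). For Itga6 (chr2:71786939-71858427), the nondiabetic libraries had 12.21, 12.17 and 12.33 and the diabetic ones 12.69, 12.63 and 12.56. These ranges did not overlap either, and the log2 change was 0.39 (SE 0.10, 1.31-fold, limma adjusted p = 0.0254). Itga1 (chr13:114958081-115101964) went the other way. Its log2 values were 11.60, 11.70 and 11.66 without diabetes and 11.26, 11.29 and 11.27 with it, so the diabetic libraries lay below the others and close together. The log2 change was -0.38 (SE 0.095, 0.768-fold, limma adjusted p = 0.0210). Counting Itgb1 and Itga3 below, the groups did not overlap for 5 of 9 members, beside 5876 of 14096 genes.

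Itgb1 (chr8:128685654-128733579), the partner of all these alpha subunits, was not called. Its log2 values were 15.35, 15.36 and 15.28 in nondiabetic vehicle and 15.65, 15.46 and 15.75 in diabetic vehicle libraries. The ranges did not overlap, but the log2 change of 0.29 (95% interval -0.079 to 0.66) had a limma adjusted p of 0.241. Itga3 (chr11:95044475-95069198), its podocyte partner, had 14.28, 14.39 and 14.19 without diabetes and 14.50, 14.41 and 14.67 with it. The lowest diabetic library (14.41) lay just above the highest nondiabetic one (14.39), and the log2 change was 0.24 (limma adjusted p = 0.385).

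The Itgav group was not called in this comparison. Itgav itself (chr2:83724397-83806917) had the narrowest interval of the 9 members, with a log2 change of 0.075 (95% interval -0.093 to 0.24). Itgb5 (chr16:33829665-33949338) had a log2 change of 0.20 (-0.23 to 0.64) and Itgb3 (chr11:104608000-104670471) of 0.33 (-0.10 to 0.77). These changes fell to 0.081 for Itgb5 without diabetic vehicle library 3 and to 0.16 for Itgb3 without diabetic vehicle library 2. Itgb8 (chr12:119162803-119238276), a subunit of a receptor that activates latent TGF-beta, was the only one of them with a lower mean in diabetes. Its log2 values were 10.61, 10.54 and 10.38 in nondiabetic vehicle and 9.97, 9.43 and 10.47 in diabetic vehicle libraries. The third diabetic library lay inside the nondiabetic range, and the log2 change of -0.55 (95% interval -1.13 to 0.025) had a limma adjusted p of 0.157. It ranged from -0.81 to -0.29 with each library left out in turn and was called in 0 of these 12 fits.

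**Figure D2:**
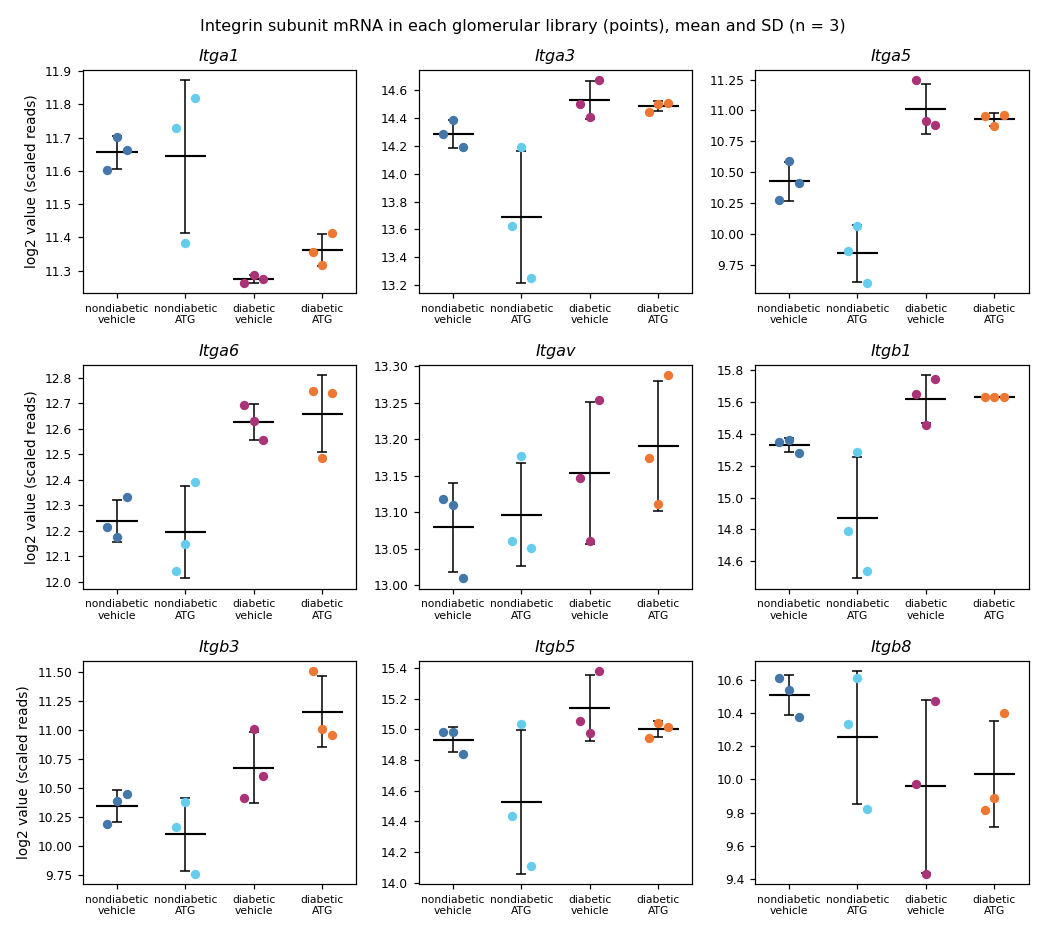
Log2 value of each integrin subunit gene (y axis, scaled reads, a separate range for each gene) in the 4 groups. Points are single libraries, the horizontal bar is the mean and the whiskers are the SD (n = 3). Itga5 and Itga6 stand higher and Itga1 lower in diabetic vehicle than in nondiabetic vehicle libraries, and the 3 nondiabetic ATG libraries are spread widely for Itga3, Itgb1 and Itgb5.

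These calls depended on single libraries, as did those of all genes. None of the 9 members was called without nondiabetic vehicle library 1 (801 of 14096 genes, against 2659 with all libraries) or without diabetic vehicle library 1 (1003). The log2 changes in these fits were 0.51 and 0.47 for Itga5, 0.38 and 0.35 for Itga6, and -0.41 and -0.38 for Itga1, with limma adjusted p of 0.0551 to 0.0903. Only Itga5 was called without nondiabetic vehicle library 2 (1587 genes). When the fit was adjusted for the tubule mean (the average log2 value of the 30 tubule markers), Itga5 had a log2 change of 0.51 and a limma adjusted p of 0.209, Itga6 0.40 with 0.207 and Itga1 -0.32 with 0.264. Itgb8 alone was called in that fit, at a log2 change of -1.51 and a limma adjusted p of 0.0387, beside 380 of 14096 genes. The tubule means of the vehicle groups did not overlap, so the fit extended a slope beyond the values they share. With group means removed, Itgb8 had a Pearson r of -0.78 with the tubule mean. Of the 30 tubule markers, 20 were lower in diabetic vehicle than in nondiabetic vehicle libraries, and 7 of 15 endothelial markers were higher, 0 lower. Of the 14 mesangial markers, 3 were lower and 1 higher, with a median log2 change of -0.26. Of 6 listed erythrocyte markers, 3 were higher, with a median log2 change of 1.85, and their mean log2 value was 7.88, 5.60 and 7.86 in diabetic vehicle libraries 1, 2 and 3, against 5.25 to 5.42 in the nondiabetic vehicle group. The part of these cell types in the integrin values was not tested.

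Genes of matrix ligands and of the adhesion complex inside the cell were described beside the members. Of 37 listed ligand genes, 10 were higher and 2 lower in diabetic vehicle glomeruli. Those with the lowest p were Nrros (log2 change 0.96), which binds latent TGF-beta, Tgfb1 (0.78), which encodes that cytokine, and the laminin chain Lamc1 (0.61). The laminin chains Lamc3 (-0.95) and Lama3 (-0.61) were lower. The collagen IV chains Col4a1 (0.56) and Col4a2 (0.76), ligands of the Itga1 product, and Lama5 (0.32), a chain of the laminin bound by the Itga3 product, were among the 10, with limma adjusted p of 0.0249, 0.00822 and 0.0402. Fibronectin, Fn1, the ligand of the Itga5 product, had a log2 change of 0.47 and a limma adjusted p of 0.0995. Of 37 adhesion complex genes, 8 were higher, led (here and in later lists) in order of p by Fermt3 (0.94), the kindlin of blood cells, Rap1a (0.47), a small GTPase that activates integrins, and Arhgef7 (0.37), and 3 were lower, Tns1 (-0.78), Dab2 (-0.39) and Tln2 (-0.85). The kinases Ilk (0.27) and Ptk2 (0.075), which act downstream of integrins, were not called, with limma adjusted p of 0.0561 and 0.459.

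Of 18 other integrin genes, 5 were higher and 0 lower in diabetic vehicle glomeruli. They were Itgal (1.01), Itgb2 (0.82), Itgam (0.82), Itgb7 (0.53) and Itga2b (0.61). The first 4 encode leukocyte integrins, and 5 of 16 listed leukocyte markers were also higher. Their part in these values was not tested. The product of Itga2b pairs with that of Itgb3 on platelets, and 0 of 9 platelet markers were listed. Itgb4, the other partner of Itga6, had a log2 change of 0.039 (limma adjusted p = 0.907).

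The comparison of diabetic ATG with diabetic vehicle libraries asked whether ATG altered the subunits in diabetic glomeruli. It shares the diabetic vehicle libraries with the comparison above. No member was called (0 of 9, beside 0% of all genes), and each of the 9 had a limma adjusted p of 1.00. At an unadjusted p under 0.05, limma gave 1 member and 636 of all genes. With limma-voom on the reads recovered from the values, 0 genes were called as well.

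Itgb3, a subunit of the vitronectin receptor, was that member. Its log2 values were 10.41, 11.01 and 10.60 in diabetic vehicle and 11.51, 11.00 and 10.96 in diabetic ATG libraries. The second vehicle library lay within the ATG range, and the log2 change was 0.48 (SE 0.20, 95% interval 0.048 to 0.92). Leaving out each library in turn gave 0.31 to 0.65. Itga1 was the member whose ranges did not overlap, as they did not for 1434 of 14096 genes, at 11.36, 11.32 and 11.41 with ATG against 11.26 to 11.29 without. That shift was small, with a log2 change of 0.087 (95% interval -0.12 to 0.30). For Itga5 the interval was -0.37 to 0.20 and for Itga6 -0.19 to 0.26 on the log2 scale. The point changes of these members were -0.085 and 0.032, against 0.59 and 0.39 for diabetes.

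The remaining 5 members had log2 changes between -0.14 (Itgb5) and 0.076 (Itgb8) with ATG in diabetic glomeruli. Their intervals were widest for Itgb8 (-0.50 to 0.65) and narrowest for Itgav (-0.13 to 0.21). Itgb1 had nearly the same value throughout the diabetic ATG group, at 15.63 in each of the 3 libraries. None of the 18 other integrins, 37 ligands and 37 adhesion complex genes was called in limma, and 3, 4 and 2 of them had an unadjusted p under 0.05. Itgb2, the common beta subunit of leukocyte integrins, had a log2 change of -0.65 with a limma adjusted p of 0.804, and Nrros -0.44 with 0.917. Leukocyte markers had a median log2 change of -0.56, with 0 of 16 called in limma and 8 at an unadjusted p under 0.05, and erythrocyte markers one of -1.03, with 0 of 6 called and 0 at that p. Their part in these values was not tested.

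In nondiabetic mice ATG was compared with vehicle, using the nondiabetic vehicle libraries of the first comparison. Itga5 was the member called, 1 of 9, beside 5.22% of all genes. Its log2 values were 9.87, 10.07 and 9.61 with ATG, all below the vehicle range of 10.27 to 10.59. The groups did not overlap for 1 of 9 members, beside 4848 of 14096 genes. The log2 change of Itga5 was -0.58 (SE 0.13, 0.670-fold, limma adjusted p = 0.0338). The call held in 5 of 12 fits with 1 library left out, in which the log2 change was -0.69 to -0.46 and the limma adjusted p up to 0.149 (without nondiabetic vehicle library 2). It was lost with the compared groups alone (limma adjusted p = 0.111), where 0 of 14096 genes were called.

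Itga3, Itgb1 and Itgb5 had lower means with ATG but a wide spread. Itga3 had 13.62, 14.19 and 13.25 in nondiabetic ATG libraries, with the second at the level of the vehicle libraries (14.19 to 14.39). Its log2 change was -0.60 (limma adjusted p = 0.0787). Itgb1 had 14.79, 15.29 and 14.54, with a log2 change of -0.46 and a limma adjusted p of 0.110. The second library again lay within the vehicle range of 15.28 to 15.36. Itgb5 repeated the order, at 14.43, 15.04 and 14.11, with a log2 change of -0.41 (limma adjusted p = 0.189). Without that second library, 4 of 9 members were called, beside 3531 of 14096 genes (736 with all libraries), and Itga3 had a log2 change of -0.85 (limma adjusted p = 0.00251), Itgb1 of -0.66 (0.00468) and Itgb5 of -0.66 (0.00950). Without the third nondiabetic ATG library the log2 changes were -0.38 for Itga3, -0.29 for Itgb1 and -0.20 for Itgb5.

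Marker levels of several cell types are given beside these values. The mean of the 15 podocyte markers was 13.4, 14.2 and 12.99 in nondiabetic ATG libraries 1, 2 and 3, and 14.02 to 14.2 in the nondiabetic vehicle group, with 0 of the 15 called in limma and 8 at an unadjusted p under 0.05. The mean of the 15 endothelial markers was 12.5, 12.9 and 12.1, against 13.1 to 13.2, and 8 of the 15 were called lower, 0 higher. Of the 14 mesangial markers, 8 were lower. Tubule markers had a median log2 change of 0.77, with 0 of 30 called in limma and 10 at an unadjusted p under 0.05. The part of these cell types in the integrin values was not tested. After adjustment for the tubule mean, Itga5 had a log2 change of -0.54 and a limma adjusted p of 0.190. Itga3 then had -0.39, Itgb1 -0.28 and Itgb5 -0.16, with limma adjusted p of 0.464, 0.561 and 0.809. The tubule means of these groups did not overlap. Leaving out the 2 libraries without a number after the hyphen gave Itga5 a log2 change of -0.46 and a limma adjusted p of 0.191.

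The other 5 members were not called in nondiabetic glomeruli. Itga1 (-0.012), Itgav (0.017, 95% interval -0.15 to 0.19) and Itga6 (-0.046) had log2 changes near 0, and with a median-ratio scaling those of Itga1 and Itga6 became 0.035 and 0.0013. Itgb3 (-0.24) and Itgb8 (-0.26) had wider intervals that included 0. With each library left out in turn they ranged from -0.38 to -0.074 and from -0.43 to -0.039, nearest 0 without nondiabetic ATG library 3 and farthest from it without library 2 of that group. Without the unnumbered libraries they were -0.020 and -0.10.

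Among genes linked to the members, the calls in this comparison were in the lower direction. Of 18 other integrins, 4 were lower and 0 higher, led by Itga8 (-1.09), the mesangial receptor for nephronectin, Itga7 (-0.95) and Itga4 (-0.85). Of 37 ligands, 13 were lower, led by Nid1 (-0.89), a basement membrane linker, Mfge8 (-0.50), a ligand of Itgav integrins, and Tgfb3 (-1.07). Vcl (-0.79), Flna (-0.99) and Tln1 (-0.44), which couple integrins to actin, led the 4 of 37 adhesion complex genes that were lower, again with 0 higher. All genes together leaned the same way, with 636 lower and 100 higher (408 and 130 with a median-ratio scaling).

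Diabetes in ATG-treated mice gave the largest number of calls among the members. Itga5, Itgb3, Itga3, Itgb1 and Itga6 were higher and Itga1 lower, 6 of 9, beside 46.7% of all genes. The median log2 change of the members was 0.47, against 0.053 over all genes. This comparison uses the libraries of both ATG comparisons.

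Itga5 had a log2 change of 1.08 (SE 0.13, 2.12-fold, limma adjusted p = 0.000260), from 9.61 to 10.07 in nondiabetic ATG libraries to 10.95, 10.87 and 10.96 in diabetic ATG libraries. Itgb3 had a log2 change of 1.06 (SE 0.20, 2.08-fold, limma adjusted p = 0.00193), from 10.16, 10.37 and 9.76 to the 10.96 to 11.51 given above. In both, every diabetic library exceeded every nondiabetic one. The groups did not overlap, in either direction, for 5 of 9 members and 7909 of 14096 genes. Itga3 (0.79, limma adjusted p = 0.00616) and Itgb1 (0.76, 0.00440) followed, with 14.44, 14.50 and 14.51 for Itga3 in diabetic ATG libraries, all above the nondiabetic ATG libraries. Itga6 was higher by 0.47 (SE 0.10, limma adjusted p = 0.00423), at 12.75, 12.48 and 12.74 against 12.04, 12.15 and 12.39. These 5 members kept their calls whichever of the 12 libraries was left out. Itga1 fell by 0.28 on the log2 scale (limma adjusted p = 0.0311), but its second nondiabetic ATG library (11.38) lay within the diabetic ATG range, and its call was lost in 5 of 12 such fits.

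Itgb5 had a log2 change of 0.47 (limma adjusted p = 0.0709), Itgav of 0.095 (0.326) and Itgb8 of -0.22 (0.514). With each library left out in turn, that of Itgb5 ranged from 0.27 to 0.73, and it was called only at the upper end, without nondiabetic ATG library 2 (limma adjusted p = 0.00178). The log2 change of Itgb8 ranged from -0.44 to -0.043 and was called in 0 of these 12 fits. In the same comparison 29 of 30 tubule markers were lower and 15 of 15 endothelial markers higher, as were 10 of 14 mesangial, 3 of 15 podocyte and 5 of 16 leukocyte markers. Their part in these values was not tested. After the same adjustment, 0 of 9 members were called in limma, beside 63 of 14096 genes (6585 without it). Itga5 then had a log2 change of 0.98 (limma adjusted p = 0.109) and Itgb3 of 1.28 (0.148), while Itga3 had 0.28 (0.717) and Itgb1 0.32 (0.620). That of Itgb8 was -1.43 (limma adjusted p = 0.0863). The tubule means of the 2 groups did not overlap, and the standard errors were larger after adjustment, 0.41 in place of 0.20 for Itgb3.

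Beside the 46.7% of all genes called in this comparison, 10 of 18 other integrins were called (9 higher, led by Itga9 at 1.13, Itga8 at 1.11 and Itga4 at 0.89, and Itgae lower at -0.50). Of 37 ligands, 21 were higher, led by Mfge8 (0.92), Tgfb1 (1.23) and Nid1 (1.27), and 4 were lower. Of 37 adhesion complex genes, 24 were higher, led by Vcl (1.02), Flna (1.12) and Rsu1 (0.60), and 6 were lower, led by Dab2 (-0.61), Ptk2b (-0.86) and Tln2 (-1.03).

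The difference between the ATG effects in diabetic and nondiabetic mice was tested directly. No member was called, 0 of 9, beside 0.546% of all genes, while 2 members and 1812 of 14096 genes had an unadjusted p under 0.05 in limma. They were Itgb3, with a difference of 0.73 on the log2 scale (95% interval 0.11 to 1.34, limma adjusted p = 0.312), and Itga5, with 0.49 (0.089 to 0.90, limma adjusted p = 0.298). Among the alternatives run, Itga3 (0.55) and Itgb1 (0.47) were called only without nondiabetic ATG library 2, where their differences were 0.80 (limma adjusted p = 0.0258) and 0.68 (0.0380), beside 770 of 14096 genes called (77 with all libraries). Without nondiabetic ATG library 3 these differences were 0.33 and 0.30. So the lower Itga5 with ATG in nondiabetic mice was not shown to differ from its change in diabetic mice. Among linked genes, Itga8 (1.34, limma adjusted p = 0.0443), Nid1 (0.95, 0.0455), Vcl (0.81, 0.0272) and Flna (1.01, 0.0455) were among the 77 genes called, a number that was 6 to 16 in 8 of 12 fits with 1 library left out. In the same contrast, the mesangial markers had a median difference of 1.01, with 1 of 14 called in limma and 12 at an unadjusted p under 0.05, and the endothelial markers one of 0.67, with 1 of 15 called and 13 at that p. Their part in these values was not tested.

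**Figure D3:**
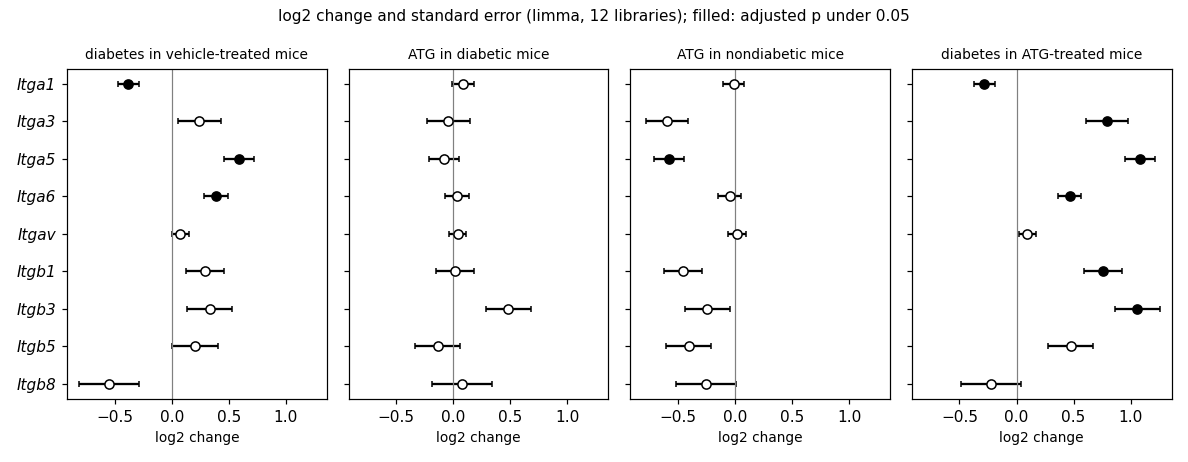
Log2 change (x axis) of each integrin subunit gene in the diabetes and ATG comparisons, 1 panel per comparison, with the standard error from limma as bars. Filled points have an adjusted p under 0.05: 3 members for diabetes with vehicle, 6 for diabetes with ATG, 1 for ATG without diabetes and 0 for ATG in diabetic mice.

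The subunits varied with each other and with cell markers across the libraries. The correlations are descriptions over 12 libraries that share groups, scaling and tissue composition, and each is given again after the group means were removed. Itga3 and Itgb1, which encode the podocyte laminin receptor, had a Pearson r of 0.99 (0.98 without group means). Itgb5, which does not pair with either, had r of 0.96 (0.98) with Itga3 and 0.93 (0.97) with Itgb1. Itgb5 had r of 0.97 (0.97) with the podocyte marker mean and 0.87 (0.88) with the endothelial marker mean. Itga3 had 0.93 (0.94) and 0.96 (0.93) with these means, and Itgb1 0.90 (0.94) and 0.97 (0.91), so neither gene followed the podocyte markers in particular.

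Itga5 ran with the endothelial marker mean, with r of 0.96 (0.71 without group means), more than with the podocyte mean (0.70 and 0.46). Itga1 had r of -0.79 (-0.83) with the endothelial mean, -0.66 (-0.77) with the podocyte mean and -0.21 (-0.22) with the mesangial mean, and of 0.78 with the tubule mean, but of 0.15 with the tubule mean once group means were removed. Itgb8 showed the opposite. Its r with the podocyte mean was 0.42 over all libraries and 0.88 within groups, and with its partner Itgav 0.31 and 0.88. Within groups, Itgb3 had r of 0.63 with the parietal epithelial marker mean and 0.60 with the endothelial mean. Over all libraries these were 0.61 and 0.81. Itga6 had its largest r within groups with the leukocyte marker mean (0.59). The part of cell composition in these values was not tested.

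**Figure D4:**
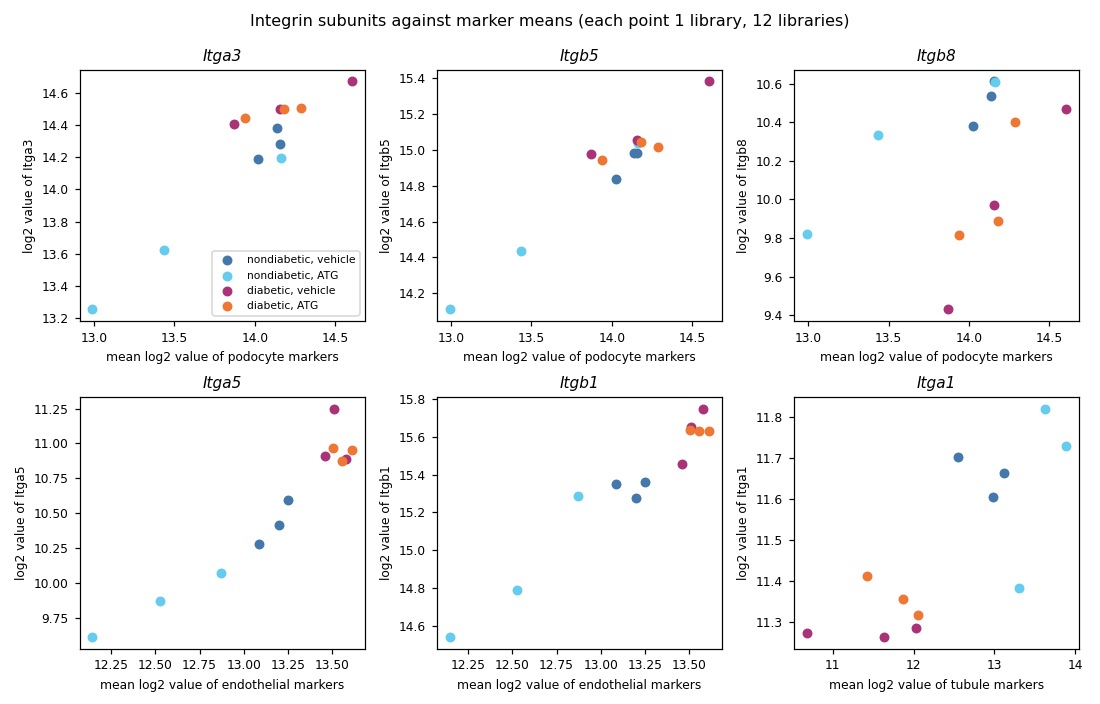
Log2 value of 6 integrin subunit genes (y axes) against the mean log2 value of podocyte, endothelial or tubule markers (x axes), with 1 point per library coloured by group. Itga3 and Itgb5 rise along the podocyte mean and Itga5 and Itgb1 along the endothelial mean, with nondiabetic ATG libraries 1 and 3 at the low end, while Itga1 is lowest in the diabetic libraries, with 1 nondiabetic ATG library (11.38) among them.

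The genes most like each member over the 12 libraries were named by the highest Pearson r among all other genes. For Itgb1 they were Klhl5 (r = 0.998) and Bnip2 (0.994), for Itga3 Tm4sf1 (0.994) and Golm1 (0.993), and for Itgb5 St3gal3 (0.993) and Rarres1 (0.992). Itga5 was matched by Fxyd5 and Ccm2l (0.990 each), Itga1 by Rgma (0.960) and Itpr1 (0.957), and Itga6 by Vdac3 and H2-T10 (0.949 each). Itgb8 was matched by Usp9x (0.960) and Akap11 (0.926), Itgb3 by Nrarp (0.943) and Arhgap27 (0.933), and Itgav by Vwa5a (0.912) and Chm (0.888). Within groups these r stayed between 0.73 (Itgb3 with Arhgap27) and 0.99.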

How the data were processed

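Poly-A mRNA of isolated glomeruli had been sequenced. The authors deposited, for each library, a log2 value per gene with its symbol and mm10 position. The submitters' processing notes name limma, and the aligner and counter are not given in the sources used here. On the linear scale, 83.4% to 83.9% of values under 2000 were whole multiples of a step per library (within 0.02 reads), which gave the reads. Sums were 29.7 to 30.2 M (mega), so depth had been scaled out by the authors.

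All 12 libraries entered a single fit of the 4 groups in limma 3.58.1 (R 4.3.3) with a mean-variance trend and 8 residual degrees of freedom. P-values were adjusted over 14096 genes (Benjamini-Hochberg), with calls under 0.05. The code was tested on simulated data. Figures used matplotlib 3.10.9. Groups came from the labels, and library numbers are the title numbers, with the unnumbered nondiabetic libraries as 3. Named are the members, the called genes of the other lists with the 3 lowest p per direction, known partners and ligands, and the 2 genes most like each member. Itgam and Itgb7 complete a count of 5. The members and lists were chosen with earlier results of these data known. Alternatives were a minimum of 10 reads, the compared groups alone, a replicate block, each library left out, the unnumbered libraries left out, median-ratio scaling, limma-voom, no trend, the mean of 30 tubule markers as a covariate, a threshold of 0.1 and a pseudocount of 8.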

Additional observations from a re-analysis of the deposited data

How the results depend on the processing

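Among refits of single member changes, 857 kept their direction and their side of the threshold, 38 lost a call, 9 gained a call and 32 turned in sign. No call turned in sign. After adjustment for the tubule mean, 1 member was called for diabetes with vehicle, 0 for ATG in nondiabetic mice and 0 for diabetes with ATG, beside 380, 39 and 63 of 14096 genes (2659, 736 and 6585 without it). The signs that turned with it were those of Itga3 (-0.17), Itgav (-0.16), Itgb1 (-0.052) and Itgb5 (-0.29) for diabetes with vehicle, Itga3 (0.052) for ATG in diabetic mice, Itgb8 (0.23) for ATG in nondiabetic mice, Itgav (-0.20) and Itgb5 (-0.15) for diabetes with ATG, and Itgav (-0.043) for the difference between ATG effects. Median-ratio scaling turned Itga1 (0.035) and Itga6 (0.0013) for ATG in nondiabetic mice and Itgav (-0.0071) for the difference. The cause was not tested.

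For ATG in nondiabetic mice, 0 members were called with the compared groups alone (0 of all genes) or without the unnumbered libraries (8 of all genes), and 2 at an adjusted p under 0.1 (2145 of all genes). With each library left out in turn, 0 to 3 members were called for diabetes with vehicle, 0 to 4 for ATG in nondiabetic mice and 0 to 2 for the difference, beside 801 to 3357, 60 to 3531 and 6 to 770 of all genes. In these fits, log2 changes for ATG in diabetic mice ranged from -0.10 to 0.031 for Itga3, -0.15 to 0.031 for Itga5, -0.013 to 0.12 for Itga6, -0.011 to 0.088 for Itgav, -0.068 to 0.077 for Itgb1 and -0.19 to 0.33 for Itgb8. For ATG in nondiabetic mice they ranged from -0.10 to 0.12 for Itga1, -0.15 to 0.031 for Itga6 and -0.023 to 0.040 for Itgav. For the difference they ranged from -0.031 to 0.19 for Itga1 and -0.028 to 0.070 for Itgav.

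Same-numbered libraries of the 2 diabetic groups had correlated deviations of 0.31, 0.054 and 0.34, those of the 2 vehicle groups -0.025 and -0.26, and other pairs were as low as -0.59, which does not establish a pairing. With the number as a replicate block, 2 members were called for diabetes with vehicle (1375 of 14096 genes, 2659 without the block), Itga6 (limma adjusted p = 0.0326) and Itgb8 (log2 change -0.91, 0.0259), but not Itga5 (0.0574) or Itga1 (0.0718), and Itgav was -0.0032. For diabetes with ATG, Itga1 was lost and Itgb8 gained (-0.58, 0.0390). Number 3 held only diabetic libraries, and the unnumbered libraries, set as a block of their own, were all nondiabetic. So only numbers 1 and 2 held both diabetic and nondiabetic libraries. Diabetic vehicle library 3, with the highest Itgb8 value of its group (10.47), had no nondiabetic library in its block. Each member had at least 614 reads in every library, and 3 libraries per group limit the precision.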

Other observations

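Tetraspanins and other membrane proteins that bind integrins laterally formed a list of 11 genes. In limma 0 of them were called for diabetes with vehicle (1 at an unadjusted p under 0.05), for ATG with diabetes (0) or for ATG without it (3). For diabetes in ATG-treated mice, 3 were higher and 2 lower, beside 46.7% of all genes called. Cd151, the partner of the Itga3 integrin in podocytes, had a log2 change of 0.57 (limma adjusted p = 0.00715), Tspan4 of 0.72 (0.00180) and Cd81 of 0.42 (0.00839). Bsg had -0.31 (0.0240) and Cd63 -0.66 (0.0254). For diabetes with vehicle, Cd151 had 0.28 (0.181).

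Nephronectin, Npnt, a basement membrane ligand made by podocytes, had a mean log2 value of 15.09 ± 0.037 (SD, n = 3) in nondiabetic vehicle libraries and 14.62 ± 0.52 in nondiabetic ATG libraries, with a log2 change of -0.48 (limma adjusted p = 0.185). Its receptor subunit Itga8 was lower in the same comparison and had a log2 change of -0.23 (0.322) for diabetes with vehicle.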
